A study of Caenorhabditis elegans with 23 samples.

Results

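The 5 Caenorhabditis elegans genes T10D4.1, Y113G7A.22, F55B11.5, F13B6.1 and F58B6.1 gave mRNA counts in worms of the wild isolate MY16 and few or none in N2, the laboratory strain. They are 5 of 46904 gene IDs in each count table, and all 5 have a row in both the mRNA and the small RNA table. They were picked by name from the mRNA comparison of MY16 with N2, and the same separation between MY16_Star and N2_Star was known at the time. Their mRNA levels are therefore given as a description, with no test between MY16-named and N2-named worms. The tests concern what the choice did not rest on: the Star groups against their own isolates, the small RNA counts, and other genes.

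By its title, the study concerns small RNAs inherited over generations without the nucleus. The groups were MY16_Star, MY16, N2_Star and N2, all whole day 1 adults grown on E. coli OP-50 at 20 °C. The labels do not explain the word Star, and give no further genotype or treatment. There were 3 mRNA libraries in each group, and 3 small RNA libraries in each group except N2_Star, which had 2. The design text puts the missing small RNA library in MY16_Star, but the sample names and columns put it in N2_Star, and these were followed. The replicates are described as biological with no word on separate cultures, so the tests measure only the spread between these libraries.

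As background, wild isolates of C. elegans differ from N2 by many sequence variants, and such variants can leave a gene transcribed in one isolate and silent in another. C. elegans also makes small RNAs against many of its own genes: RNA-dependent RNA polymerases copy a transcript into short antisense RNAs, and Argonaute proteins that carry them can silence the matching gene over generations. A gene that one isolate transcribes and another does not is therefore of interest in both kinds of library. The RNA was taken from whole animals, so fewer cells that transcribe a gene and less RNA per cell cannot be told apart.

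The annotation lists all 5 as protein-coding, each with 1 RefSeq transcript, and names no function for any of them. T10D4.1 (WBGene00020406) lies on chromosome II from 3150140 to 3150689 in ce11, a span of 550 bp. Y113G7A.22 (WBGene00206510) lies on chromosome V from 20134606 to 20135347, a span of 742 bp that contains an annotated tRNA pseudogene, Y113G7A.t3. F55B11.5 (WBGene00010087) lies on chromosome IV from 14427695 to 14428453, a span of 759 bp. F13B6.1 (WBGene00017416) lies on the same chromosome from 7456525 to 7458214, and F58B6.1 (WBGene00019029) on chromosome III from 1112279 to 1115925. The genes thus share no locus. Counted from the left end, they start at 20.6% of the annotated length of II, 96.2% of V, 82.5% and 42.6% of IV, and 8.07% of III. The genome used for alignment, ce11, is that of N2, so the low counts are in the strain whose sequence the reads were aligned to. Extra or altered copies in MY16 whose reads align to these places could not be told apart from the genes themselves.

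The mRNA libraries held between 9362590 and 23150198 gene counts each, and the small RNA libraries between 1778321 and 19563562. Levels are CPM, the counts of a gene relative to the library's total gene counts, scaled between libraries by TMM. A count of 0 allows up to 3 counts, which is 0.127 to 0.311 CPM in an mRNA library and 0.134 to 1.95 CPM in a small RNA library (counting error only). The mRNA library N2_Star replicate 1 stood apart: its correlation with the other libraries of its group was 0.928 and 0.936, against 0.989 between those (Pearson's r over genes, log2 of CPM + 1). Of 33 marker genes in 8 lists for tissues and males, 31 averaged at least 1 CPM, and the male marker mab-3 stayed between 0.104 and 0.574 CPM in every library. Between MY16_Star and N2_Star, 4 of 6 germline and oocyte markers were higher (summed 5493 to 7342 against 3128 to 4403 CPM) and 4 of 5 sperm markers lower (4.14 to 14.5 against 12.6 to 42.5 CPM). Between MY16 and N2, 0 of these 6 germline and 1 of these 5 sperm markers were called. The part of these differences in the results for the 5 genes was not tested.

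Y113G7A.22 had no mRNA counts outside the MY16-named groups. Its counts in replicates 1, 2 and 3 were 229, 403 and 309 in MY16_Star, and 246, 191 and 173 in MY16. All 6 libraries of N2_Star and N2 held 0. Scaled, the gene stood at 19.005 ± 5.24 CPM in MY16_Star and 13.9 ± 4.09 CPM in MY16 (SD, n = 3 each), at least 122-fold higher than N2_Star and at least 74.3-fold higher than N2, with the floor of 3 counts in each library of the empty group.

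T10D4.1 showed nearly the same picture. It had 390, 313 and 278 counts in MY16_Star, and 379, 316 and 177 counts in MY16. Of the 6 libraries of N2_Star and N2, only N2_Star replicate 3 held any, with 2 counts. Its level was 19.7 ± 2.62 CPM in MY16_Star and 18.7 ± 2.74 CPM in MY16 (SD, n = 3 each). From the summed counts, 981 in MY16_Star and 2 in N2_Star, the ratio after scaling for depth was 572, with an exact 95% counting interval of 158 to 4728. MY16 was at least 99.9-fold higher than N2.

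F55B11.5 was also expressed in the MY16-named groups, but every library of N2_Star and N2 held a low remainder. It had 48.9, 47.8 and 50.9 CPM in MY16_Star, and 53.2, 52.9 and 47.3 CPM in MY16. N2_Star libraries held 0.553, 0.510 and 0.492 CPM and N2 libraries 0.250, 0.410 and 0.677 CPM, from 4 to 16 counts each. N2_Star stood at 1.05% of MY16_Star, and N2 at 0.872% of MY16.

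F13B6.1 and F58B6.1 kept a larger remainder. F13B6.1 had 17.6, 17.0 and 24.6 CPM in MY16_Star and 26.1, 13.5 and 10.2 CPM in MY16, against 0.352, 0.850 and 0.934 CPM in N2_Star and 0.250, 0.574 and 0.635 CPM in N2. F58B6.1 had 12.0, 11.6 and 11.1 CPM in MY16_Star and 13.6, 10.5 and 15.5 CPM in MY16, against 0.654, 0.624 and 0.344 CPM in N2_Star and 0.374, 0.656 and 0.550 CPM in N2. N2 held 2.93% of the MY16 level of F13B6.1 and 3.99% of that of F58B6.1, and N2_Star 3.61% and 4.68% of the MY16_Star level. The share left in N2 thus ran from no count for T10D4.1 and Y113G7A.22 to several percent for these 2 genes. For all 5 genes the lowest MY16-named library exceeded the highest N2-named one. Of 13983 genes tested, 474 (3.39%) were separated in that direction. A stricter rule, chosen after the values were seen, asked for at least 10 CPM in every library of one side and 10-fold more than any library of the other. It was met by 9 genes with the MY16-named side higher (0.0644%), 4 of the 5 among them, and by 18 genes with it lower (0.129%).

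**Figure D1:**
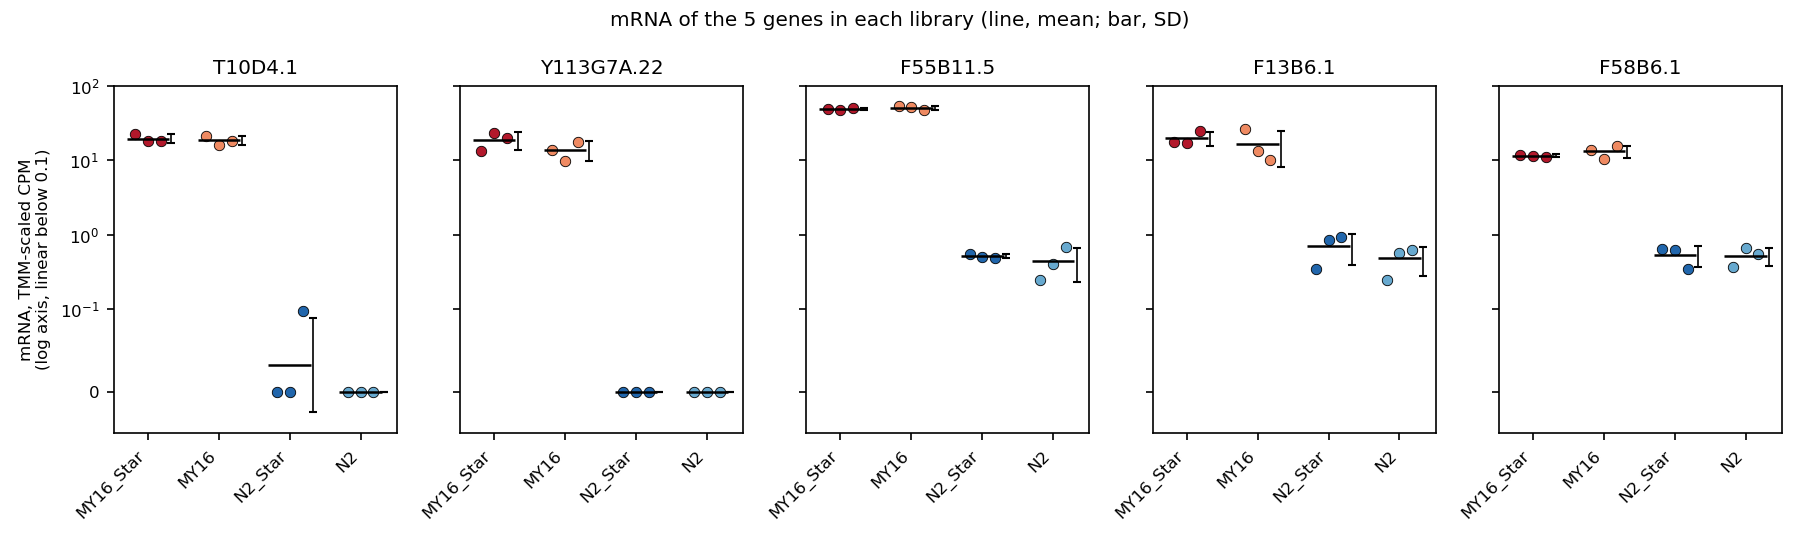
TMM-scaled mRNA CPM (log axis, linear below 0.1) of the 5 genes in the 3 libraries of each group, with the mean as a line and the SD as a bar. MY16_Star and MY16 libraries lie between 9.72 and 53.2 CPM, and every N2_Star and N2 library lies at 0.934 CPM or lower.

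The same separation held between MY16_Star and N2_Star. It was known when the genes were picked, so it is described here with no test. F55B11.5 was higher in MY16_Star by 6.55 ± 0.261 on the log2 scale (edgeR fit, SE), or 94.9-fold in mean CPM. The log2 difference was 4.78 ± 0.470 for F13B6.1 and 4.40 ± 0.312 for F58B6.1, or 27.7-fold and 21.4-fold. Without N2_Star replicate 1 these differences were 6.60 for F55B11.5, 4.45 for F13B6.1 and 4.58 for F58B6.1. T10D4.1, Y113G7A.22 and F55B11.5 passed the filter on low counts only through the MY16-named libraries, which tilts their fits towards a difference. With N2_Star and N2 alone, F55B11.5 did not pass it. The fitted values of T10D4.1 and Y113G7A.22 rest on groups with 2 and 0 counts and are not given. Over all genes, the edgeR quasi-likelihood test (Benjamini-Hochberg adjusted p under 0.05) called 7.69% higher in MY16_Star than in N2_Star and 22.5% in either direction. Between MY16 and N2 it called 1.72% higher and 4.03% in either direction. The 5 genes are among the higher in both, which the choice of genes fixed, so nothing is read from that count.

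Between a Star group and the isolate it is named after, no tested difference passed. With edgeR, 0 of 5 genes passed between MY16_Star and MY16, and 0 of the 3 genes with a remainder between N2_Star and N2. None of these had an unadjusted p under 0.05 or was called by DESeq2. The background was 0.0215% of genes called between MY16_Star and MY16 and 0.15% between N2_Star and N2. The log2 differences of MY16_Star from MY16 were 0.46 ± 0.319 for Y113G7A.22, 0.24 ± 0.382 for F13B6.1, 0.08 ± 0.314 for T10D4.1, -0.06 ± 0.190 for F55B11.5 and -0.19 ± 0.255 for F58B6.1 (SE; edgeR adjusted p 0.873 or more). The libraries of the groups overlapped in each gene. Between N2_Star and N2 the 3 genes with a remainder differed by 0.52 ± 0.515 (F13B6.1), 0.15 ± 0.306 (F55B11.5) and 0.04 ± 0.339 (F58B6.1), with edgeR adjusted p of 0.777 or more. T10D4.1 and Y113G7A.22 were at or under 3 counts in both of these groups and have no fold there. Without N2_Star replicate 1, the N2_Star differences were 0.85 for F13B6.1, 0.08 for F55B11.5 and -0.13 for F58B6.1, none past the threshold. These SEs are wide enough that modest differences, in either direction, would not have been detected.

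The interaction asks whether the Star group differs from its isolate by the same amount on the MY16 side as on the N2 side. It was -0.20 ± 0.360 for F55B11.5, -0.28 ± 0.632 for F13B6.1 and -0.24 ± 0.427 for F58B6.1 on the log2 scale (SE; edgeR adjusted p 0.855 or more), and none of these 3 had an unadjusted p under 0.05 or was called by DESeq2. T10D4.1 and Y113G7A.22, with 2 and 0 counts in all N2-named libraries, have no value to compare on that side. Over all genes edgeR called 0 interactions in mRNA (0%), with 1830 at an unadjusted p under 0.05, and DESeq2 called 83.

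The spread between libraries of the MY16-named groups differed from gene to gene, though a coefficient of variation from 3 libraries is imprecise. F55B11.5 had a coefficient of variation of 3.12% in MY16_Star and 6.49% in MY16, where counting alone would give 3.51% and 3.68%. F13B6.1 spread most in MY16, where replicate 1 held 26.1 CPM and replicate 3 held 10.2 CPM, a coefficient of variation of 50.4% against 6.25% from counting. In MY16_Star its coefficient was 21.4%. Y113G7A.22 varied by 27.6% in MY16_Star and 29.5% in MY16, against 5.65% and 7.38% from counting. T10D4.1 varied by 13.3% in MY16_Star and 14.7% in MY16, against 5.54% and 6.14% from counting. F58B6.1 varied by 4.05% in MY16_Star and 19.3% in MY16, against 7.24% and 7.46% from counting. No single library was high or low for all 5: MY16 replicate 3 was the lowest of its group for F55B11.5 and F13B6.1 and the highest for Y113G7A.22 and F58B6.1.

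**Figure D2:**
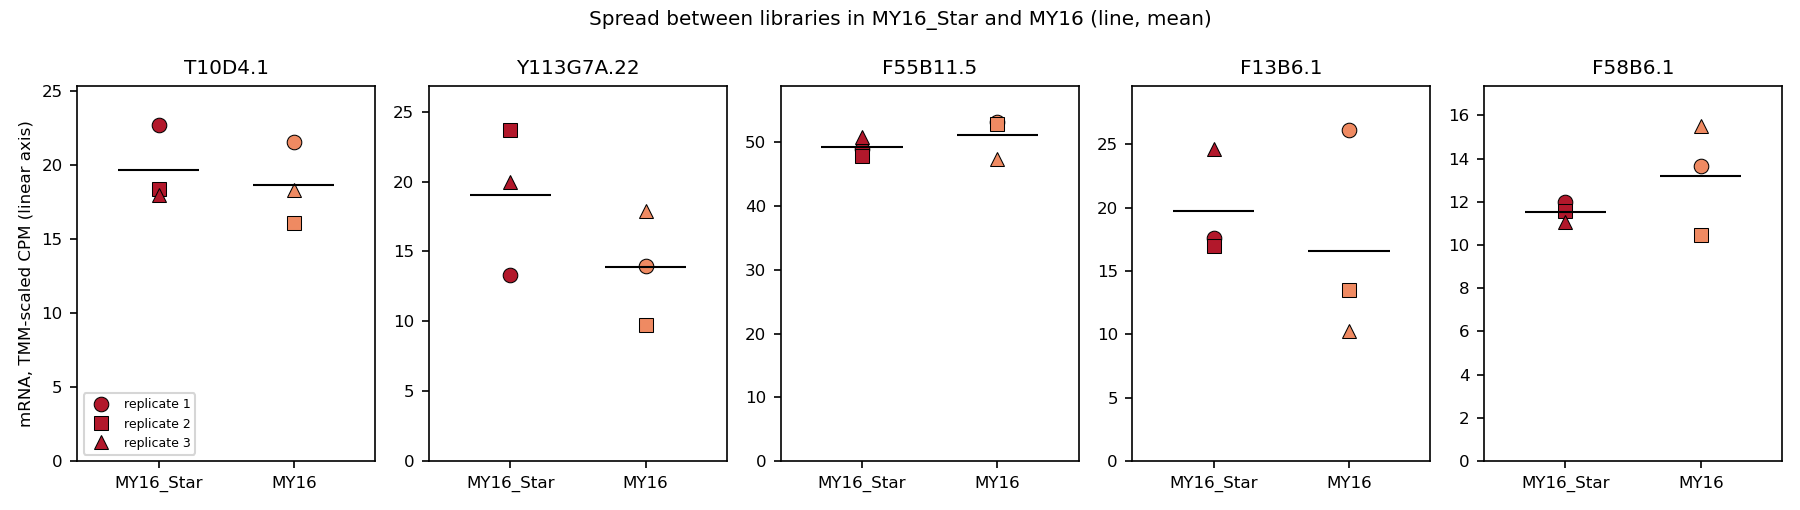
TMM-scaled mRNA CPM (linear axes from 0) of the 5 genes in the 3 MY16_Star and 3 MY16 libraries, with the mean as a line and a symbol for each replicate number. The groups overlap in every gene, and F13B6.1 in MY16 runs from 10.2 to 26.1 CPM.

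Small RNA was scarce at all 5 genes. Which strand the small RNA counts come from is not given in the sources used here. T10D4.1, F55B11.5 and F58B6.1 had at most 3 counts in any small RNA library and 0 to 3 counts in the sum of each group. No difference between groups was detectable for them at this depth. They did not pass the filter on low counts, and neither did F13B6.1, so 1 of 5 genes was tested in small RNA.

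Y113G7A.22 was that gene. Its small RNA counts were 0, 32 and 17 in MY16_Star and 2, 11 and 9 in MY16, against 0 and 0 in N2_Star and 0, 0 and 0 in N2. Small RNA counts were thus found in 5 of the 6 MY16-named libraries, and in none of the 5 N2-named ones. It passed the filter through the MY16-named libraries alone, so a test against the N2-named groups would lean towards a difference. It stood at 1.69 ± 1.48 CPM in MY16_Star and 1.39 ± 0.270 CPM in MY16 (SD, n = 3 each), at least 4.004-fold higher than N2_Star and at least 1.85-fold higher than N2 with those groups at 3 counts per library.

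Because Y113G7A.22 passed the filter in this way, no test against N2_Star or N2 is given for its small RNA. Over all genes, 5.82% were called higher in MY16_Star than in N2_Star and 8.55% in MY16 than in N2. MY16_Star and MY16 differed by 0.31 ± 0.886 on the log2 scale (SE; edgeR adjusted p 0.986), where 1.02% of genes were called in either direction. Between N2_Star and N2, both at 0 counts, and in the interaction the gene has no value to test; 0.0245% and 0.368% of genes were called there.

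F13B6.1 held a few small RNA counts in every group except MY16. It had 0, 6 and 1 counts in MY16_Star and 0, 0 and 0 in MY16, against 5 and 2 in N2_Star and 13, 3 and 3 in N2. In CPM this was 0.198 ± 0.218 in MY16_Star (SD, n = 3) and 0.947 ± 0.921 in N2 (SD, n = 3), with 0.317 and 0.436 in the N2_Star libraries. A count of 0 in the MY16 libraries allows 0.875 CPM on average, just below the N2 mean. Fitted with no filter on low counts, MY16 was lower than N2 with an edgeR adjusted p of 0.0384, where 2719 of 29618 genes were called in either direction. In that fit MY16_Star did not pass against MY16 (edgeR adjusted p 0.673) or N2_Star (0.935). With the filter F13B6.1 was not tested, and counts this low at this depth do not settle a difference. The sums behind these values were 7 counts in MY16_Star, 0 in MY16, 7 in N2_Star and 19 in N2.

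**Figure D3:**
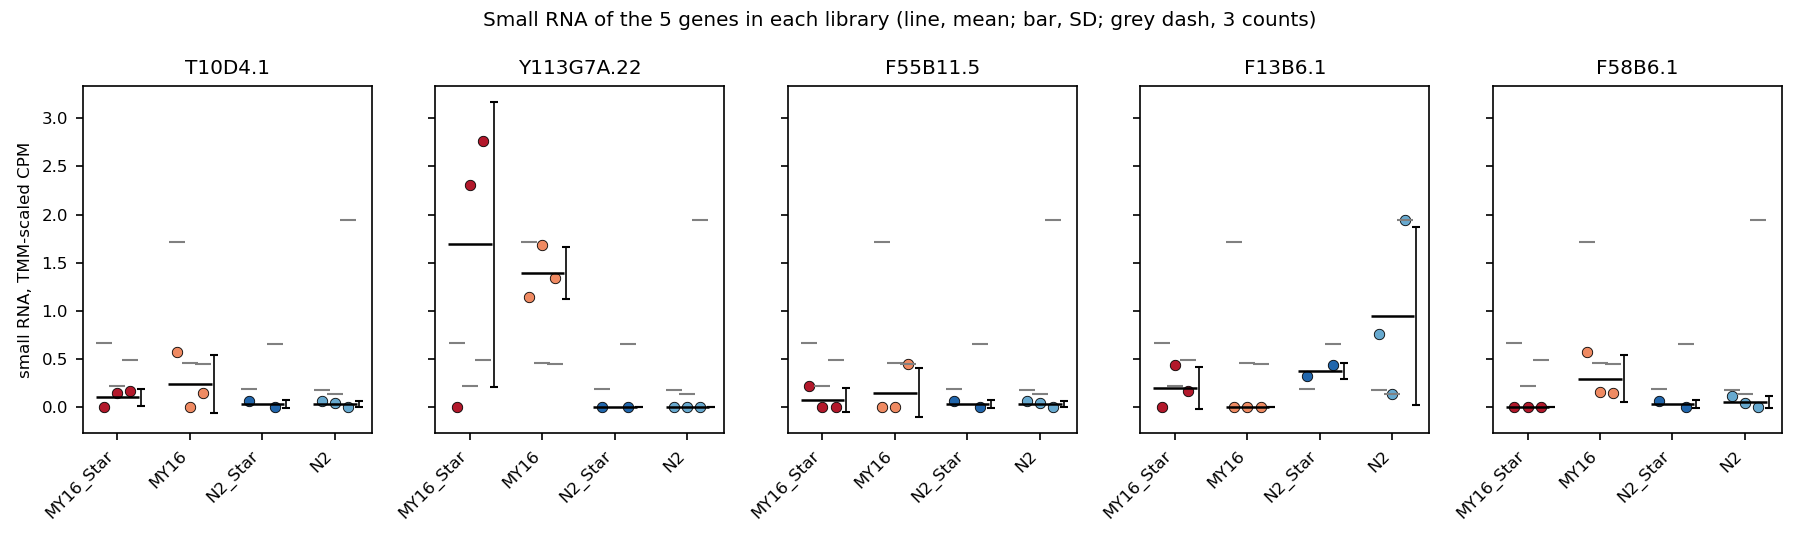
TMM-scaled small RNA CPM of the 5 genes in each library, with the mean as a line, the SD as a bar and a grey dash at 3 counts of that library. Y113G7A.22 has counts in 5 of 6 MY16_Star and MY16 libraries and 0 in N2_Star and N2, and F13B6.1 has 0 in the 3 MY16 libraries.

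The genes next to the 5 were compared to see whether the pattern extends along the chromosome. The 5 annotated genes on each side of each (50 in all, piRNA, miRNA, tRNA and snoRNA genes left out) gave 42 with a row in the tables, of which 17 passed the mRNA filter and 10 the small RNA filter. In mRNA, 3 of 17 were higher and 4 lower in MY16_Star than in N2_Star, against 22.5% of all genes called in either direction. In MY16 against N2, 1 was higher and 0 lower, against 4.03% of all genes. The median log2 differences were -0.14 and 0.06, against -0.12 and -0.02 over all genes tested. In small RNA, 2 of 10 were higher and 3 lower in MY16_Star than in N2_Star, and 3 higher and 2 lower in MY16 than in N2, against backgrounds of 14.5% and 18.6% of genes called in either direction. Among them, F13B6.2 passed the filter through the MY16-named libraries and F55B11.6 through the N2-named ones, so nothing is read from their calls. None of the 17 or 10 was called by edgeR or DESeq2 between MY16_Star and MY16. At an unadjusted edgeR p under 0.05 there were 3 and 2, against 619 of 13983 and 1056 of 12241 genes. Between N2_Star and N2, edgeR called 0 of either list, and DESeq2 called 2 of the 17 in mRNA, both beside F13B6.1, against 364 of all genes. Between MY16 and N2, DESeq2 called 3 of the 17, against 760 of all genes.

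T10D4.1 stood among genes with almost no mRNA in any group. Of its 9 neighbours with a row, 5 belong to the sri family of predicted chemoreceptors. Of the 9, 7 had 0 mRNA counts in all 12 libraries, and the others had 4 counts in sum. The closest, T10D4.11 at 518 bp and T10D4.14 at 531 bp, had 0. Y113G7A.22 was flanked by weakly expressed genes: ssu-1, a sulfotransferase gene, had 0.732 ± 0.281 CPM in MY16_Star and 0.260 ± 0.0988 CPM in N2_Star (SD, n = 3; log2 difference 1.47 ± 0.478 SE, edgeR adjusted p 0.0457). That call was lost with DESeq2 (adjusted p 0.0736), with no filter (0.0759), and without MY16_Star replicate 2 (0.110) or 3 (0.101) or N2_Star replicate 1 (0.0978), 2 (0.0708) or 3 (0.0678).

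F58B6.1 lies 334 bp from exc-6, a formin gene, and exc-6 was higher in the MY16-named groups in both assays. Its mRNA stood at 15.2 ± 1.39 CPM in MY16_Star and 7.19 ± 1.32 CPM in N2_Star, and at 17.2 ± 4.21 CPM in MY16 and 7.71 ± 0.437 CPM in N2 (SD, n = 3 each; log2 differences 1.08 ± 0.225 and 1.15 ± 0.226 SE, edgeR adjusted p 0.00813 and 0.00961). The call between MY16 and N2 was lost without N2 replicate 2 (adjusted p 0.0581). Its small RNA stood at 114 ± 47.2 CPM in MY16_Star and 20.7 ± 4.30 CPM in N2_Star (SD, n = 3 and 2), and at 165 ± 27.7 CPM in MY16 and 22.6 ± 4.01 CPM in N2 (SD, n = 3 each), with edgeR adjusted p of 0.000511 and 3.36e-05. F58B6.1 itself had 0 to 2 small RNA counts per library, so the small RNA difference was at the neighbour. On its other side, acsd-1 at 540 bp did not pass in mRNA (edgeR adjusted p 0.605 between MY16_Star and N2_Star).

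F13B6.2, 621 bp from F13B6.1, was higher in MY16_Star than in N2_Star in both assays. Its mRNA was 6.58 ± 1.11 CPM in MY16_Star and 2.39 ± 0.895 CPM in N2_Star (SD, n = 3 each; edgeR adjusted p 0.00724), and 10.6 ± 0.828 CPM in MY16 and 4.97 ± 1.16 CPM in N2 (edgeR adjusted p 0.0584). Its small RNA was 3.96 ± 1.18 CPM in MY16_Star and 0.676 ± 0.0312 CPM in N2_Star (SD, n = 3 and 2). In MY16 it was 3.65 ± 2.16 CPM and in N2 0.345 ± 0.274 CPM (SD, n = 3 each). N2_Star held 14 of these counts in sum and N2 9, so F13B6.2 passed the small RNA filter through the MY16-named libraries. A test would lean towards a difference, and none is given. The mRNA call was lost when the 2 groups were fitted alone (edgeR adjusted p 0.0574). The small RNA call against N2_Star, counted above, was lost without MY16_Star replicate 2 (edgeR adjusted p 0.0578) or 3 (0.0558). F13B6.1 itself had few small RNA counts, with sums of 7 in MY16_Star, 0 in MY16, 7 in N2_Star and 19 in N2 from libraries of unequal depth. The next gene, F13B6.3, was lower in MY16_Star, at 1.82 ± 0.319 CPM against 8.03 ± 2.40 CPM in N2_Star (SD, n = 3 each; edgeR adjusted p 0.00197). Between MY16 and N2, F13B6.3 was not called (edgeR adjusted p 0.0947). In mRNA, 1 of the 5 tested neighbours of F13B6.1 was called higher and 3 lower in MY16_Star than in N2_Star. Over all genes, 22.5% were called in either direction. Higher and lower mRNA thus stood side by side around F13B6.1.

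Around F55B11.5, 1 of 6 tested neighbours was called in mRNA between MY16_Star and N2_Star: F55B11.3, with a log2 difference of -0.39 ± 0.126 (SE; edgeR adjusted p 0.0456). That call was lost under 9 of 11 alternatives, DESeq2 among them (adjusted p 0.0550), with adjusted p up to 0.243 without MY16_Star replicate 2. The small RNA of F55B11.6, a gene 10466 bp away, was nearly absent from the MY16-named groups: 1.498 ± 1.54 CPM in MY16_Star and 0.0990 ± 0.172 CPM in MY16 (SD, n = 3 each), against 358 ± 30.7 CPM in N2_Star (SD, n = 2) and 307 ± 30.0 CPM in N2 (SD, n = 3). In sum this was 29 counts in MY16_Star and 2 in MY16, against 7527 in N2_Star and 12478 in N2. F55B11.6 thus passed the small RNA filter through the N2-named libraries, and no test is given for this difference. tra-3, a calpain gene of sex determination, had more small RNA in MY16 than in N2, at 57.1 ± 16.7 against 29.7 ± 6.62 CPM (SD, n = 3 each; edgeR adjusted p 0.0178), a call lost without MY16 replicate 1 (0.0528) and with the 2 groups alone (0.0516). Reads of MY16 that fail to align to the N2 genome would also lower counts in MY16, and this was not tested for F55B11.6.

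**Figure D4:**
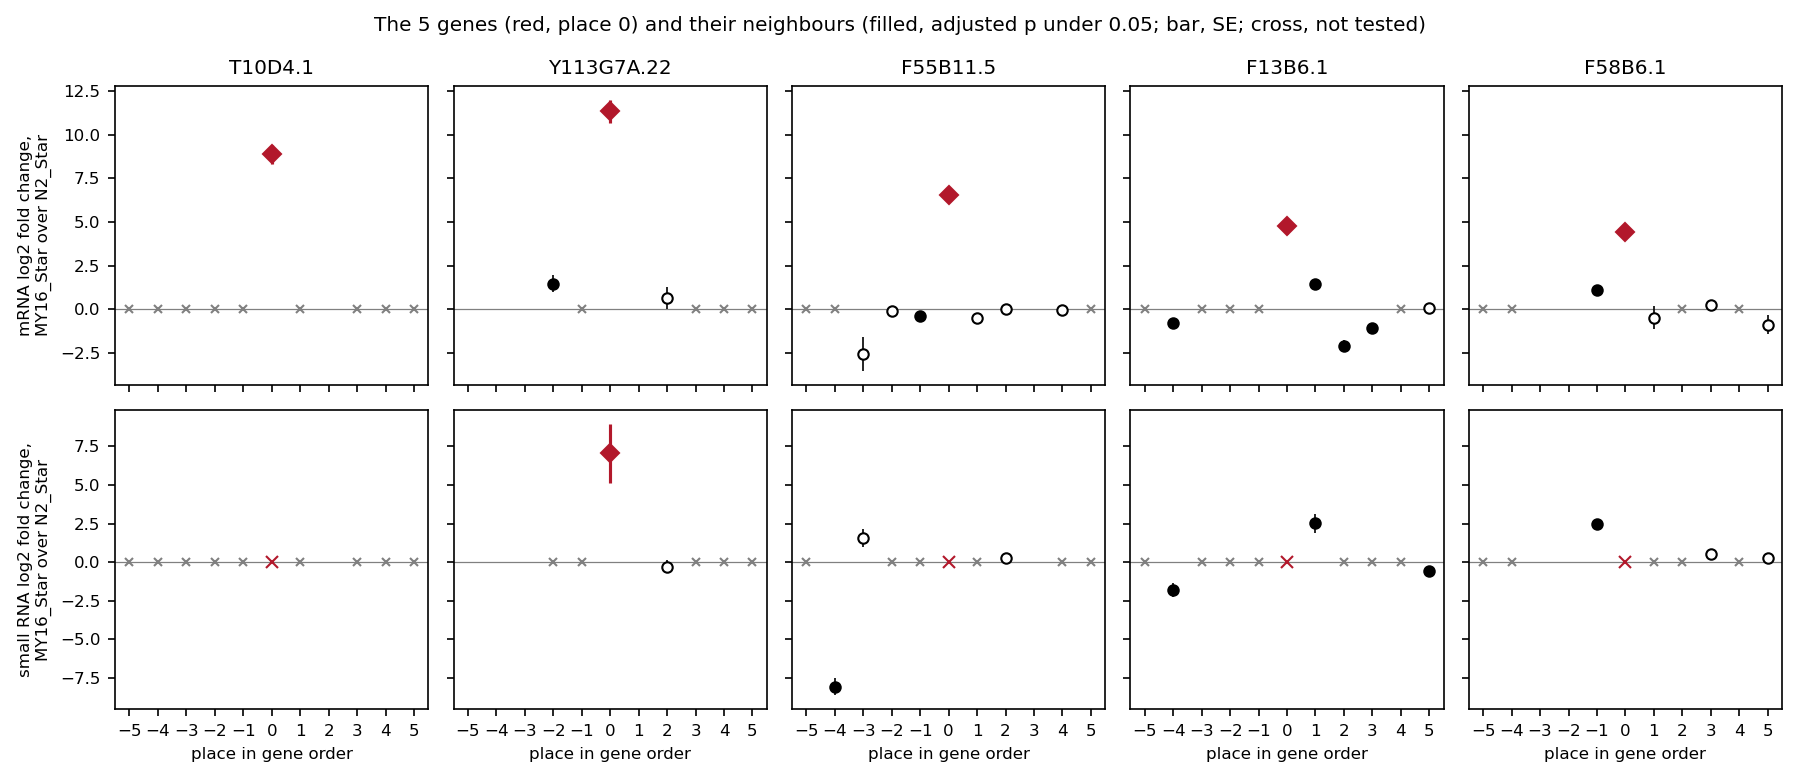
Log2 fold change of MY16_Star over N2_Star in mRNA (top) and small RNA (bottom) for each of the 5 genes (red, place 0) and up to 5 genes on each side in gene order, with SE bars, filled points for edgeR adjusted p under 0.05 and crosses for genes not tested. The 5 genes stand above their tested neighbours in mRNA, and T10D4.1 has no tested neighbour; the fold changes of T10D4.1 and Y113G7A.22 rest on N2_Star groups with 2 and 0 counts and depend on the prior count.

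By mRNA profile over the 12 libraries, the 5 genes followed each other closely, as genes picked for one pattern must. Each had a Pearson's r of 0.988 or more with their mean standardised profile on log2(CPM + 1). The 5 other genes most like it, by r and among genes averaging at least 1 CPM, were WBGene00012680 (0.997), WBGene00194891 (0.997), Y75D11A.2 (0.995), F38A1.9 (0.995) and WBGene00011811 (0.994). The 3 given by ID have no row in the RefSeq table used. With 0.1 in place of 1 as the added constant, 2 of these 5 stayed among the 5 most alike. WBGene00012680 was the most abundant, at 183 ± 18.9 CPM in MY16_Star and 172 ± 22.9 CPM in MY16, against 0.346 ± 0.104 CPM in N2_Star and 0.527 ± 0.251 CPM in N2 (SD, n = 3 each). Y75D11A.2, on chromosome X, had 5.28 ± 0.913 CPM in MY16_Star and 4.24 ± 0.276 CPM in MY16, and no counts in N2_Star or N2.

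The small RNA of these look-alikes played no part in their choice, and for 3 of the 5 it was called higher in the MY16-named group in both comparisons. That count holds for this list only, and the list changed with the added constant. Of all genes tested in small RNA, 5.82% were called higher in MY16_Star than in N2_Star and 8.55% in MY16 than in N2. WBGene00194891 had small RNA of 70.8 CPM in MY16_Star and 2.87 CPM in N2_Star (edgeR adjusted p 6.05e-05), and of 70.4 CPM in MY16 and 3.51 CPM in N2 (edgeR adjusted p 1.62e-05). Y75D11A.2 had 37.3 CPM in MY16_Star and 4.15 CPM in N2_Star (edgeR adjusted p 0.00113), and stood in MY16 above N2 by 3.04 ± 0.435 on the log2 scale (SE; edgeR adjusted p 0.000382). WBGene00011811 was higher as well, by 1.55 ± 0.262 in MY16_Star over N2_Star and 1.30 ± 0.236 in MY16 over N2 on the log2 scale (SE; edgeR adjusted p 0.00198 and 0.00220). The mRNA of WBGene00011811 was not nearly confined to MY16-named worms. It averaged 74.8 CPM in MY16_Star and 72.1 CPM in MY16, against 8.67 CPM in N2_Star and 8.78 CPM in N2. WBGene00012680 missed the threshold in both comparisons (edgeR adjusted p 0.107 and 0.0540), and F38A1.9 had too few counts to be tested.

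**Figure D5:**
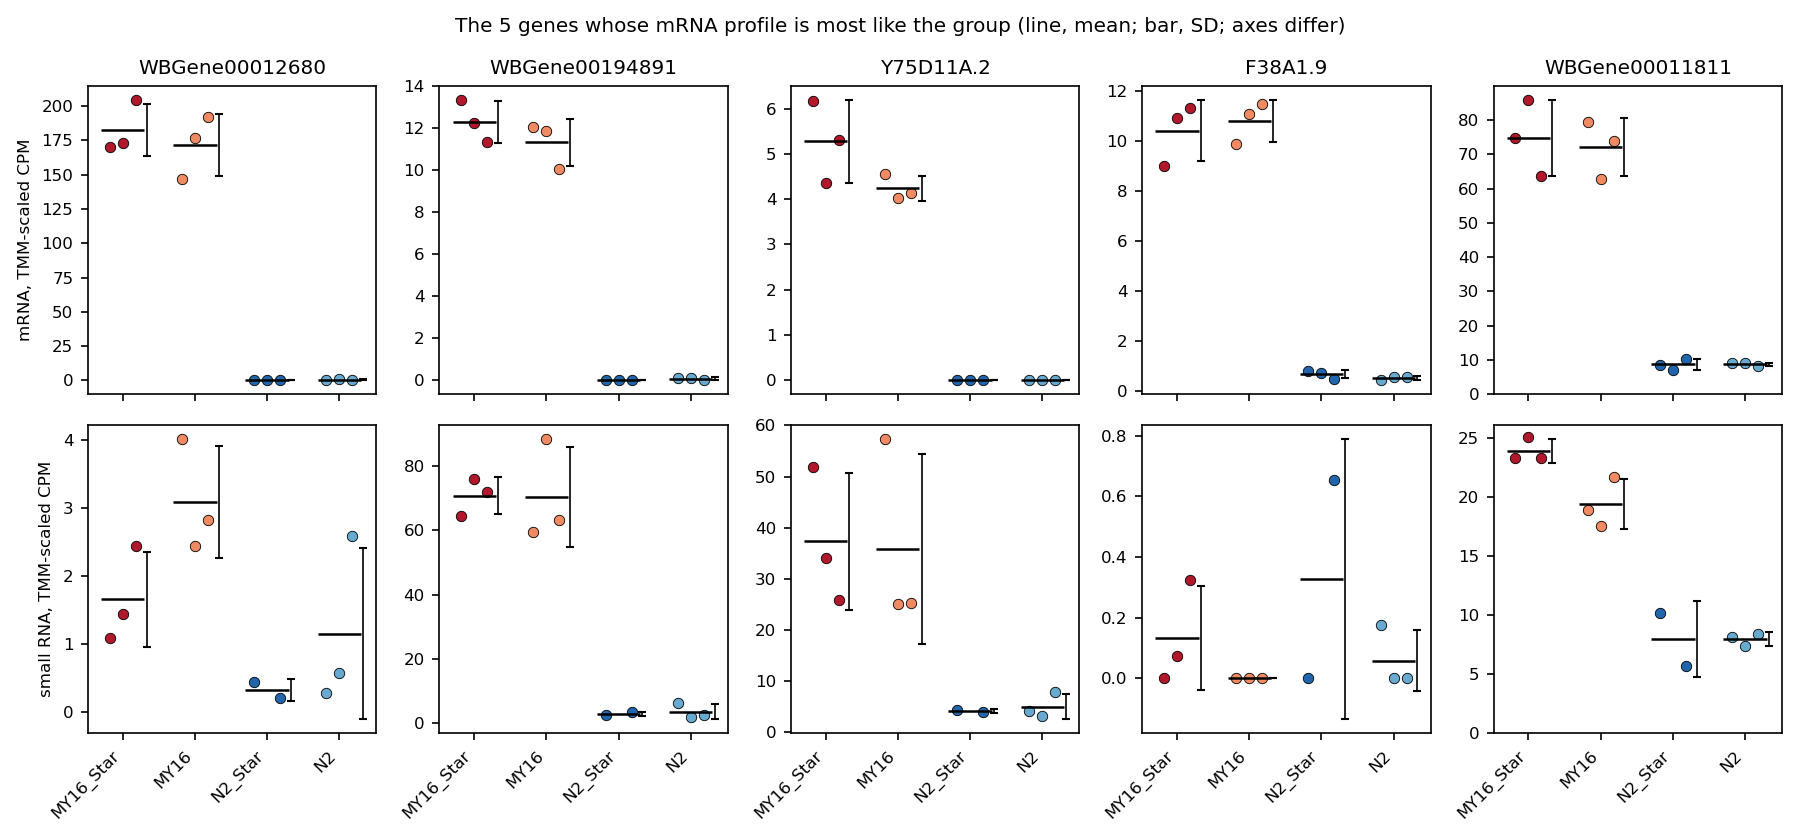
TMM-scaled CPM of mRNA (top) and small RNA (bottom) for the 5 genes whose mRNA profile is most like the mean profile, in each library, with the mean as a line and the SD as a bar (axes differ between panels). WBGene00194891, Y75D11A.2 and WBGene00011811 have more small RNA in MY16_Star and MY16 than in N2_Star and N2, and F38A1.9 stays below 1 CPM.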

How the data were processed

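The 2 tables deposited by the authors hold raw read counts for each gene, without normalization, for 12 mRNA and 11 small RNA libraries. Per the submitters' processing notes, cutadapt, FastQC, Bowtie2, HTSeq and DESeq2 were used with ce11; versions, the annotation release and strand use are not given in the sources used here. Lines that name no gene (7.84% to 17.7% of mRNA and 38.7% to 46.6% of small RNA counts) stayed out of library sizes and tests. For each assay, 1 model over the 4 groups was fitted with edgeR 4.0.16 (R 4.3.3, limma 3.58.1): TMM, filterByExpr (13983 mRNA and 12241 small RNA genes kept), quasi-likelihood F-test, Benjamini-Hochberg over all genes tested, threshold 0.05. The fits were tested on simulated data. The SE is the log2 fold change divided by the square root of F. DESeq2 1.42.0 was an alternative. Gene names came from a RefSeq table of WBcel235, the assembly that ce11 names, and 42021 of 46904 IDs matched 1 row.

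The members and lists were chosen with earlier results of these data known. Named neighbours are those called in a contrast, at most 2 per member, with the smallest adjusted p. T10D4.11, T10D4.14, F55B11.3 and acsd-1 fall outside this rule and were named after their values were seen. A planned search for protein relatives and the sequences of the genes were not analysed here. Replicate numbers were checked as pairs by correlating deviations from group means. Every pair exceeded 0.1 in small RNA between MY16_Star and MY16 (0.316, 0.117 and 0.364), and in no other contrast. In mRNA between the same groups the values were 0.42, -0.00574 and 0.531. Over all group pairs, the library with the same number gave the highest correlation in 22 of 36 mRNA and 7 of 30 small RNA comparisons. These values do not settle whether the numbers mark pairs, and the main fits used no block.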

Additional observations from a re-analysis of the deposited data

How the results depend on the processing

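The alternatives were DESeq2 size factors, no filter, the DESeq2 test, a replicate block, the 2 groups alone and each replicate left out. In mRNA, 0 of the 5 genes were called between MY16_Star and MY16 under any of them. Between MY16_Star and N2_Star all 5 stayed called, where 1.78% (2 groups alone) to 11.1% (DESeq2 test) of tested genes were called higher. The choice of genes fixed that count of 5, so nothing is read from it. Between N2_Star and N2 and in the interaction, 0 of F55B11.5, F13B6.1 and F58B6.1 were called under any alternative that tested them; with the 2 groups alone F55B11.5 was not tested, and the interaction has no such fit. Counts over all genes moved more. With the 2 groups alone they were 792 between MY16_Star and N2_Star, 0 between MY16_Star and MY16 and 0 between N2_Star and N2 in mRNA. With no filter they were 233 in mRNA N2_Star against N2, 5 in the mRNA interaction, and 522, 123 and 282 in small RNA for MY16_Star against MY16, N2_Star against N2 and the interaction. With DESeq2 these 5 counts were 364, 83, 273, 14 and 129. With the replicate block, mRNA gave 109 for N2_Star against N2 (21 without it, all 21 shared) and 1 for the interaction. In small RNA of MY16_Star against MY16, 101 of the 125 calls remained with the block. The block left Y113G7A.22 uncalled in that contrast (log2 difference 0.24, edgeR adjusted p 0.990).

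Leaving out 1 replicate at a time, mRNA counts ran from 1281 to 3631 (MY16_Star against N2_Star), 0 to 1 (MY16_Star against MY16), 0 to 177 (N2_Star against N2, highest without N2_Star replicate 1) and 0 to 8 (interaction), and small RNA counts from 1010 to 1408, 67 to 105, 2 to 15 and 20 to 80. With all libraries, 1 member was called in small RNA, Y113G7A.22, which passed the filter through the MY16-named libraries alone. Members called ran from 0 to 1 between MY16_Star and N2_Star, with 0 under the block (edgeR adjusted p 0.111 for Y113G7A.22) and with the 2 groups alone. Between MY16 and N2 they ran from 0 to 1, with 2 with no filter and 0 with the 2 groups alone, where Y113G7A.22 failed the filter. Uncalled log2 differences changed sign as single replicates were left out: MY16_Star against MY16 from -0.033 to 0.20 (T10D4.1), -0.11 to 0.028 (F55B11.5), -0.0039 to 0.73 (F13B6.1) and, in small RNA, -0.078 to 0.80 (Y113G7A.22); N2_Star against N2 from -0.090 to 0.67 (F55B11.5) and -0.13 to 0.28 (F58B6.1); and the interaction from -0.73 to 0.084 (F55B11.5) and -0.60 to 0.21 (F13B6.1). With 3 neighbours on each side, 2 of 6 tested small RNA neighbours were called between MY16_Star and N2_Star and 3 of 6 between MY16 and N2. With 10 on each side, 9 of 31 were called in each comparison. In mRNA, 16 of 42 and 5 of 42 were then called. Over all genes, 14.5% and 18.6% were called in small RNA, and 22.5% and 4.03% in mRNA. The causes of these moves were not tested. Where a left-out replicate leaves 1 N2_Star small RNA library, that library is assumed to vary like the other groups. The planned comparison with protein relatives was not run. Depth limits small RNA most: a count of 0 allowed up to 1.95 CPM in the shallowest library.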

Other observations

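Genes with the opposite pattern lay near several of the 5. By the stricter rule above, also chosen after the values were seen, 18 genes had at least 10 CPM in every N2_Star and N2 library and at least 10-fold less in MY16_Star and MY16. Among the 5 genes described here, Y113G7A.22 missed the rule in its own direction, with 9.72 CPM in MY16 replicate 2. On chromosome II, sri-40, a predicted chemoreceptor gene, starts 27.8 kb from T10D4.1 and had 0 counts in MY16_Star and MY16, against 22.3 ± 0.853 CPM in N2_Star and 24.4 ± 1.12 CPM in N2 (SD, n = 3 each). On chromosome V, skr-4, a gene of the Skp1-related family, starts 210 kb from Y113G7A.22 and stood at 0.260 ± 0.242 CPM in MY16_Star and 0.301 ± 0.106 CPM in MY16, against 30.0 ± 21.0 CPM in N2_Star and 14.1 ± 1.40 CPM in N2. On chromosome IV, F02H6.3 starts 224 kb from F55B11.5 and had 0 counts in MY16_Star and MY16, against 26.7 ± 2.78 CPM in N2_Star and 23.7 ± 6.03 CPM in N2. Thus 3 of the 5 genes lay within 250 kb of 1 of the 14 such genes with a location, as did 4.66% of 13231 tested genes with one. The window was set with these distances in view, so the share is a description with no test. Reads of MY16 that fail to align to the N2 genome would also lower counts in MY16, and this was not tested for sri-40, skr-4 or F02H6.3.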
